A study of Mus musculus with 7 samples.

Results

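The circadian clock genes are 10 genes of the feedback loop that keeps daily time in mammalian cells: Arntl, Clock, Per1, Per2, Per3, Cry1, Cry2, Nr1d1, Nr1d2 and Dbp, of 22380 annotated protein-coding genes. They were chosen by name. Each was examined over its span in mouse genome build mm9 (assembly NCBIM37) plus 50 kb on each side, here called its window. The windows held 135 of the 76683 CTCF peaks, 124 of the 67369 peaks of the cohesin subunit Rad21, and 103 of the 52436 CTCF sites that the authors had sorted into classes. There were 0 peaks shared by the windows of 2 clock genes.

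The data came from chromatin immunoprecipitation with sequencing (ChIP-seq) of livers from untreated male CD-1 mice, an outbred stock, at 8 weeks of age. CTCF was measured in 4 libraries and Rad21 in 3, and the authors pooled the libraries of each factor into 1 list of peaks. No value per library was used here, so no spread between mice can be given, no test was run, and the intervals cover counting error only. Whole liver holds several cell types, and the hour of collection is not given in the sources used here, so binding at these genes has no known circadian time.

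In the clock, BMAL1 (encoded by Arntl) and CLOCK bind E-box sequences as a pair and activate the Per and Cry genes, whose proteins return to repress them. The REV-ERB nuclear receptors (Nr1d1 and Nr1d2) repress Arntl through RORE sequences, and DBP carries the rhythm to output genes through D-box sequences. CTCF is a zinc finger protein that binds a long, asymmetric motif. Cohesin is a ring complex that extrudes chromatin loops and is halted at CTCF sites, mostly at sites whose motifs face each other. Such sites bound the topologically associating domains (TADs), within which most chromatin contacts occur, and smaller intra-TAD loops.

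Peak strength is given as the number of DNA fragments at the summit, the highest point of the peak, recovered from the deposited values. A co-bound peak shared at least 1 bp with a peak of the other factor. A Rad21 peak with no such CTCF peak is a cohesin-non-CTCF (CNC) peak. In the authors' classes, TAD anchors and intra-TAD anchors are sites predicted to hold the ends of loops, which were not measured as loops here, other CAC sites are further cohesin-and-CTCF sites, and lone CTCF sites are those the authors counted as without cohesin. In the pooled lists 4 of the 18 lone CTCF sites of the clock genes did overlap a Rad21 peak (22.2%), beside 15.8% of all lone CTCF sites. A peak was counted at a start when its summit lay within 1 kb of any annotated protein-coding start of the gene. Positions are distances from the nearest such start, negative upstream.

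Peak density varied widely among the clock genes. The density per 100 kb of window had a median of 9.97 CTCF and 8.82 Rad21 peaks over the 10 genes, beside 5.59 and 4.59 over all protein-coding genes. Nr1d1, with 20.5 CTCF and 17.7 Rad21 peaks per 100 kb, stood at the 99.9th and 99.4th percentiles of all genes. Per1 and Cry2 were also near the top, with CTCF densities of 17.4 and 15.3. Clock, with 2.06 and 3.10, was the sparsest, at percentiles of 24.4 and 37.8, and Cry1, Arntl and Nr1d2 lay below the median of all genes or near it for CTCF (4.56, 5.81 and 5.92). Both activator genes, Arntl and Clock, had fewer peaks per 100 kb of window than most of the repressor genes. Arntl (5.81 CTCF and 6.29 Rad21) was above Cry1 for CTCF (4.56) and above Nr1d2 for Rad21 (4.44). Its densities were also above the medians of all genes. Many of the peaks lay near starts: 41.9% of the clock gene Rad21 peaks (52 of 124) and 37.8% of the CTCF peaks (51 of 135) lay within 1 kb of the start of any protein-coding gene, beside 26.6% and 23.1% in the windows of all such genes. The part of nearby starts in these densities was not tested.

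**Figure D1:**
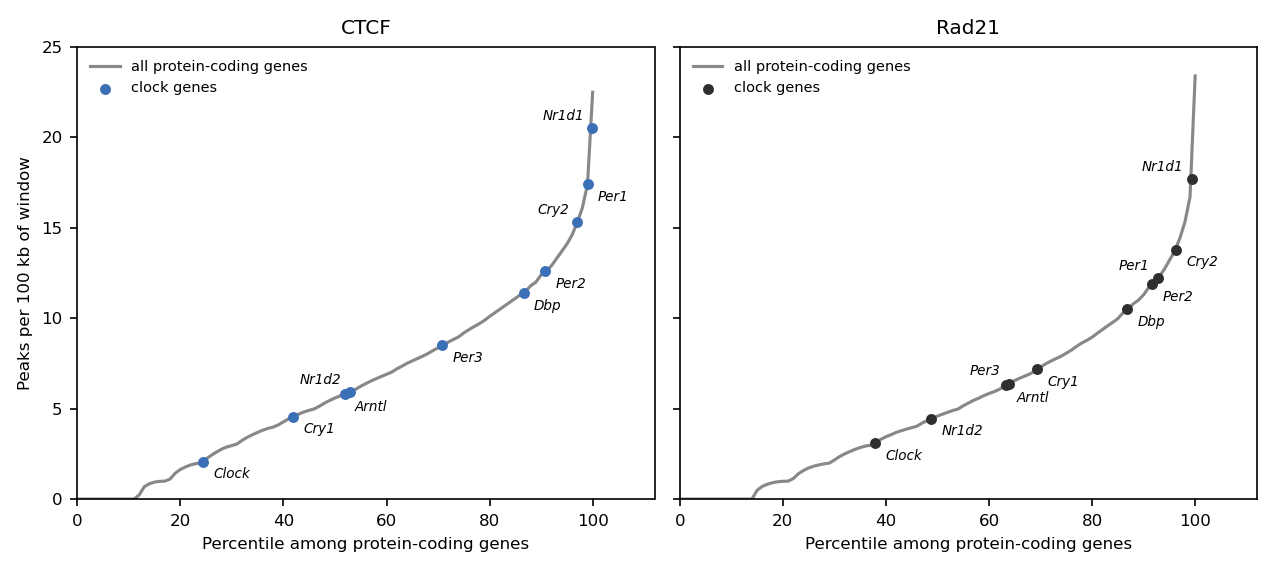
Peaks per 100 kb of window (vertical axis) against the percentile among protein-coding genes (horizontal axis), for CTCF (left) and Rad21 (right). The line is all 22380 protein-coding genes and the points are the 10 clock genes, from Clock (2.06 and 3.10) at the lower left to Nr1d1 (20.5 and 17.7) at the upper right.

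Most clock gene peaks held both factors. Rad21 was found at 102 of the 135 CTCF peaks (75.6%, 95% Wilson interval 67.7 to 82%), beside 67.3% of all CTCF peaks. Of the 124 Rad21 peaks 17 were CNC (13.7%, 8.74 to 20.9%), beside 22.7% of all Rad21 peaks. Both differences depended on the rule for co-binding. With summits at most 100 bp apart the CNC share was 36.3% against 36.8% of all, and with a reciprocal overlap of at least 50% it was 33.9% against 33.7%. The share of CTCF peaks with Rad21 was then 58.5% against 55.5%, and 60.7% against 58.2%.

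**Figure D2:**
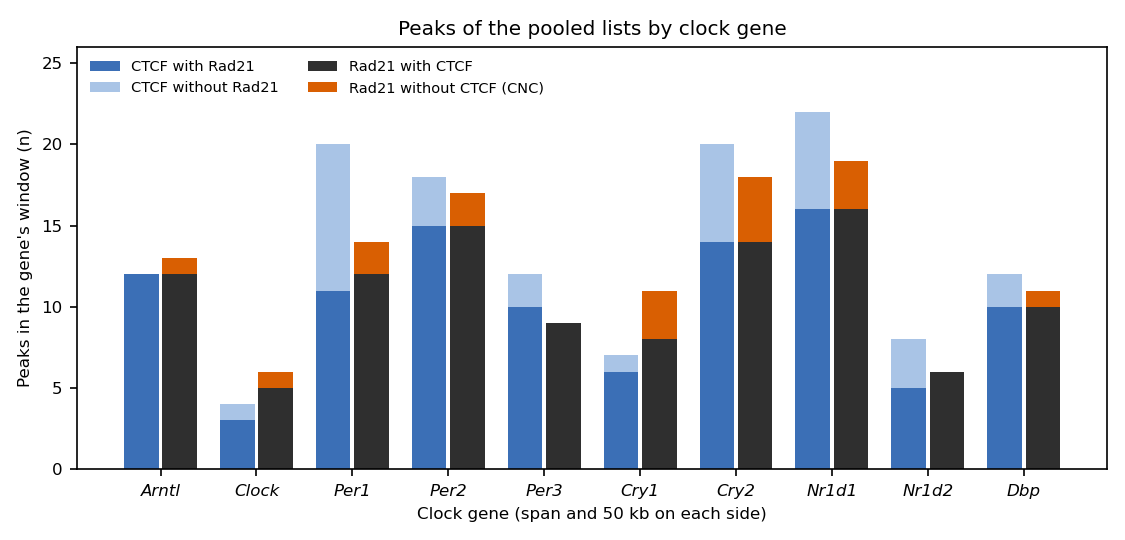
Number of peaks in the window of each clock gene (vertical axis), with CTCF peaks in blue and Rad21 peaks in black and orange, each bar divided by whether the other factor was there. Nr1d1 has the tallest bars (22 CTCF, 19 Rad21), Clock the lowest CTCF bar (4), Clock and Nr1d2 the lowest Rad21 bars (6 each), and the orange CNC part is largest in Cry2 (4) and 0 in Per3 and Nr1d2.

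**Figure D3:**
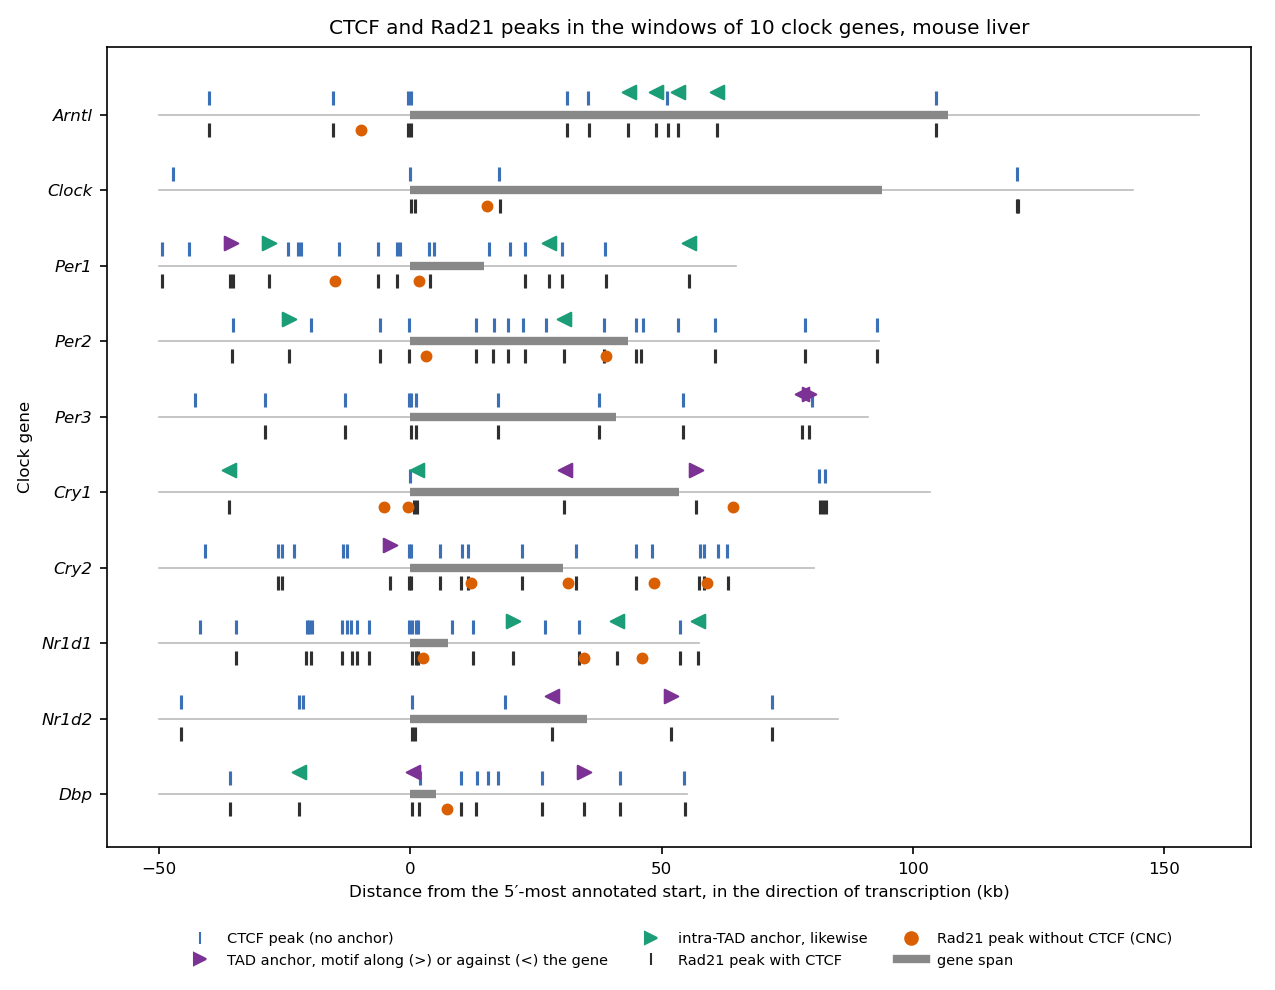
Positions of all peaks in the 10 windows. The horizontal axis is the distance in kb from the 5′-most start along the gene, grey bars are gene spans, ticks are peaks, orange points are CNC peaks, and triangles are anchors that point along or against the gene by the strand of their motif. The row of 4 intra-TAD anchors inside Arntl points against the gene, and Clock has 0 triangles.

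Each of the 10 clock genes had both CTCF and Rad21 at a start. A Rad21 summit lay within 1 kb of a start in 10 of 10, against 52.3% of all protein-coding genes, and a CTCF summit in 10 of 10, against 55.1%. A co-bound Rad21 peak was there in 10 of 10, against 49.6%. A CNC peak was at a start only in Cry1, 1 of 10 against 9.33%. At the 5′-most start alone, both factors were found in 9 clock genes, against 46% of all genes, and the exception was Per1. Genes with more annotated starts had more chances to be counted: both factors were at a start in 30.8% of all genes with 1 start (2 clock genes), 53.3% with 2 to 3 starts (6 clock genes) and 70.5% with 4 to 6 starts (2 clock genes).

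**Figure D4:**
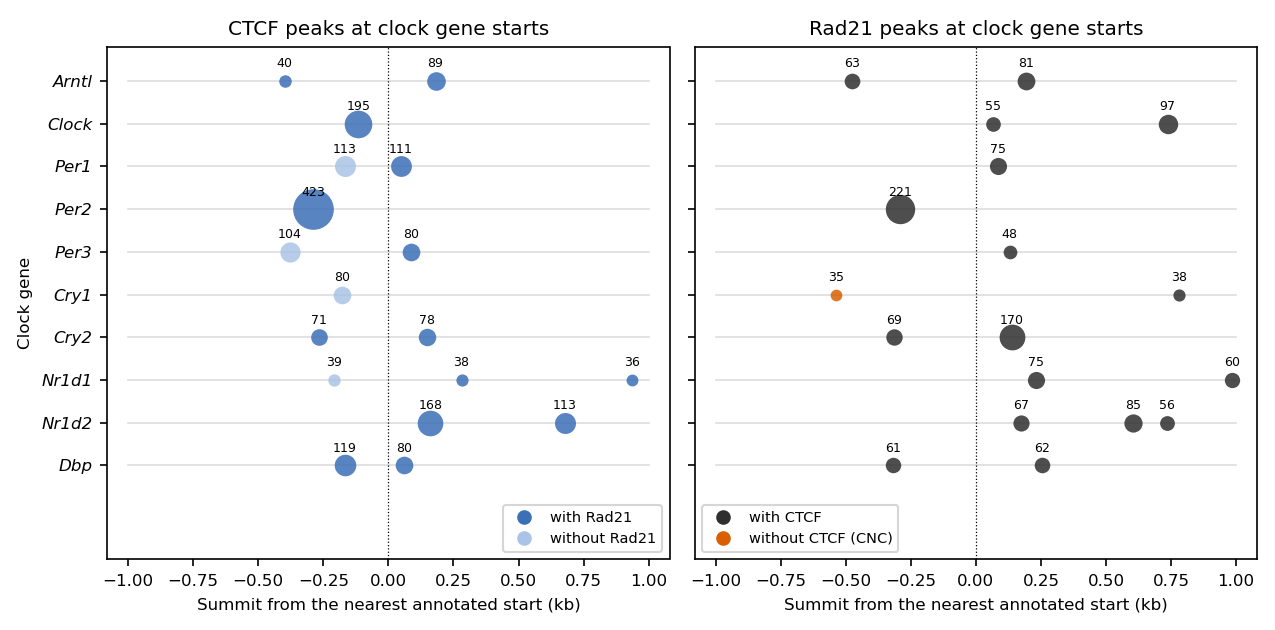
CTCF peaks (left) and Rad21 peaks (right) at the starts of the 10 clock genes. The horizontal axis is the distance of the summit from the nearest annotated start in kb, and the area of each point and the number above it give the fragments. Every gene has points in both panels, the strongest are those of Per2 (423 CTCF and 221 Rad21 fragments), and the orange point is the CNC peak of Cry1.

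The bases around the summit of the strongest Rad21 peak at a start are printed for 5 of the genes, because these are the sites that the clock genes shared; the stretches of the other genes reach into untranslated exons and are not printed. Each line has 101 bases of mm9, 5′ to 3′ along the gene, with CG dinucleotides in capitals.
Clock, chr5:76732786-76732886, minus strand: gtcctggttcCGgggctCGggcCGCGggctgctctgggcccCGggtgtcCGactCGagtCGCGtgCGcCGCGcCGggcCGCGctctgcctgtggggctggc
Per2, chr1:93356147-93356247, minus strand: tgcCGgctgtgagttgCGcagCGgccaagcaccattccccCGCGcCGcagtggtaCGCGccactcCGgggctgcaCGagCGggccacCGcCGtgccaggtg
Cry1, chr10:84646969-84647069, minus strand: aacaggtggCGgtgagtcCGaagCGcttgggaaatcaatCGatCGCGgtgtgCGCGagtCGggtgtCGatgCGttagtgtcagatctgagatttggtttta
Cry2, chr2:92274004-92274104, minus strand: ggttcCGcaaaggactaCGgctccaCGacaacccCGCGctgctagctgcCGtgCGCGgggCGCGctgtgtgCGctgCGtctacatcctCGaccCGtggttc
Nr1d2, chr14:19043463-19043563, minus strand: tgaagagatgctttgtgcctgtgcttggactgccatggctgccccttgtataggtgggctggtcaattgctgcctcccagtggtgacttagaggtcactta
Over all 10 genes the GC content of these stretches ranged from 53.5% to 80.2% and the number of CG dinucleotides from 0 to 17, with a median of 11. The Clock, Per2 and Cry2 stretches were dense in CG, and that of Nr1d2, from a start inside the gene, held 0. In 201 bp around the summit the median GC content was 65.4% over the 18 Rad21 peaks at clock gene starts, beside 63.7% at any start and 53.7% over the 17 clock gene CNC peaks.

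The 18 CTCF peaks had a median of 84.5 fragments (36 to 423), beside 80 at any start, and the 18 Rad21 peaks a median of 65 (35 to 221), beside 53. Counts of CTCF motifs came from searches that differed in matrix, threshold and the bases scanned, whose parts were not separated. The deposited list gave a motif for 11 of the 18 CTCF peaks (61.1%, 38.6 to 79.7%), beside 51.8% at any start. A matrix learnt here from TAD anchors matched within 100 bp of the summit in 4 of 18 (22.2%, 9 to 45.2%), beside 28.9% at any start. In the authors' list 8 of the 18 were other CAC sites, 3 lone CTCF sites and 2 TAD anchors, and 5 were absent from it, since it holds only CTCF peaks found in at least 2 livers.

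Among the activators, Arntl (chr7:120350979-120457636, plus strand) had 12 CTCF peaks, all co-bound, and 13 Rad21 peaks. At its single annotated start, CTCF and Rad21 peaks of 40 and 63 fragments lay at −398 and −476 bp, and peaks of 89 and 81 fragments at 181 and 192 bp. Inside the gene stood a row of 4 intra-TAD anchors, at 43.4, 48.8, 53.2 and 61 kb, all with the motif on the minus strand, against the direction of transcription. Their CTCF counts were 470, 277, 352 and 328 fragments, and their Rad21 counts 286, 45, 49 and 227. The outer anchors of the row thus had far more cohesin than the inner ones, and between the inner ones lay an other CAC site with its motif on the plus strand (296 CTCF and 71 Rad21 fragments). The nearest anchors outside the gene were a plus-strand TAD anchor 63.8 kb before it and a minus-strand TAD anchor 55.4 kb after it, a facing pair 226 kb apart.

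Clock (chr5:76639992-76733817, minus strand), which encodes the partner of BMAL1, had 4 CTCF peaks, the fewest of the 10 genes, and 6 Rad21 peaks, as few as Nr1d2. It was the clock gene with no anchor in its window. At its starts a CTCF peak of 195 fragments, 1604 bp wide with its summit at −115 bp, overlapped Rad21 peaks of 55 and 97 fragments at 67 and 737 bp. Cohesin was thus strongest at the downstream edge of the CTCF peak and not at its summit. The other CTCF peak within the gene lay in an intron at 17.3 kb (106 CTCF and 21 Rad21 fragments), and a CNC peak of 32 fragments at 15 kb. The nearest anchors were 70.5 and 284 kb from the gene and had their motifs on the same strand.

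Among the repressors, Per1 (chr11:68908719-68923462, plus strand) had 20 CTCF and 14 Rad21 peaks, but none within 1 kb of its 5′-most start. The peaks counted at a start belonged to internal starts: CTCF and Rad21 peaks of 111 and 75 fragments at 47 and 86 bp, and a CTCF peak of 113 fragments without Rad21 at −167 bp. The strongest CTCF peak of the window lay upstream of the gene at −2.7 kb, an other CAC site with 726 CTCF fragments (95% Poisson interval 674 to 781) and 105 Rad21 fragments. A CNC peak of 61 fragments lay in an intron at 1.7 kb. On either side of the gene, 55.7 kb apart, a plus-strand intra-TAD anchor at −28.2 kb, nearest to Tmem107 (579 CTCF, 218 Rad21 fragments), faced a minus-strand one in a coding exon of Hes7, a transcriptional repressor gene (491 and 319). Further out lay a plus-strand TAD anchor at −35.8 kb, by the start of 2310047M10Rik (83 and 57 fragments), and a minus-strand intra-TAD anchor at 50.1 kb, nearest to Alox12b (272 and 143).

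Per2 (chr1:93312561-93355907, minus strand) had the strongest start peaks and the strongest Rad21 peak of the clock genes. At its start the CTCF peak had 423 fragments (384 to 465) and the Rad21 peak 221 (193 to 252), with summits at −289 and −290 bp. Both counts were above those of every other clock gene start. In an intron at 30.5 kb an intra-TAD anchor had 539 Rad21 fragments (494 to 586) against 395 for CTCF (357 to 436), the only one of the 25 clock gene anchors with more Rad21 than CTCF fragments. Its motif faced that of an intra-TAD anchor at −24.2 kb, nearest to Traf3ip1 (364 CTCF, 212 Rad21 fragments), with the Per2 start between them. The strongest CTCF peak of all 10 windows, with 980 fragments (920 to 1043) and 126 Rad21 fragments, lay 92.9 kb from the nearest Per2 start, at the start of Fam132b, which encodes the iron-regulating hormone erythroferrone.

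Per3 (chr4:150377761-150418774, minus strand) had 12 CTCF and 9 Rad21 peaks, all of the latter co-bound. Its start held CTCF and Rad21 peaks of 80 and 48 fragments at 87 and 130 bp and a CTCF peak of 104 fragments without Rad21 at −379 bp. CTCF was stronger in its introns, with little cohesin: 329 CTCF and 42 Rad21 fragments at 9 kb, and 254 and 27 at 4.3 kb. Downstream of the gene, TAD anchors on opposite strands, nearest to Uts2, lay side by side at 50.8 and 49.4 kb, with 410 and 202 CTCF fragments and 115 and 63 Rad21 fragments. The strongest Rad21 peak of the window, 117 fragments with 297 for CTCF, lay at −28.9 kb in an intron of Camta1.

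Cry1 (chr10:84594447-84647799, minus strand) had more Rad21 peaks (11) than CTCF peaks (7). At its single start the factors stood apart: CTCF without Rad21 at −179 bp (80 fragments), a CNC peak at −536 bp (35 fragments), and a Rad21 peak at 780 bp (38 fragments). The last was co-bound through a CTCF peak 1448 bp wide whose summit, an intra-TAD anchor of 504 fragments, lay at 1249 bp with a Rad21 peak of its own (97 fragments). The CNC peak was 121 bp from the nearest CTCF peak. A TAD anchor of 528 CTCF and 118 Rad21 fragments lay in an intron at 30.7 kb. Outside the gene were a TAD anchor near the start of Mterfd3 (104 and 47 fragments) and an intra-TAD anchor at −36 kb (352 and 217).

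Cry2 (chr2:92243803-92274200, minus strand) had 20 CTCF and 18 Rad21 peaks, with a median of 46 fragments for each factor, beside 69 over all CTCF peaks and 47 over all Rad21 peaks. Its start stood out for cohesin: Rad21 had 170 fragments (145 to 198) at 139 bp, where CTCF had 78 (61.7 to 97.3). That ratio, 2.18, was the highest of the 102 co-bound CTCF peaks in the clock gene windows. Further peaks of 71 CTCF and 69 Rad21 fragments lay at −266 and −314 bp. A TAD anchor of 383 CTCF and 209 Rad21 fragments at −4.2 kb faced an intra-TAD anchor beyond the other end of the gene, 142 kb away.

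Among the REV-ERB genes, Nr1d1 (chr11:98629246-98636647, minus strand) had the most peaks, 22 CTCF and 19 Rad21. Yet its start peaks were the 3 CTCF peaks with the fewest fragments at any clock gene start. These had 39, 38 and 36 fragments at −209, 281 and 936 bp, with deposited folds of 3.02, 2.78 and 2.58. The CTCF peak at −179 bp of Cry1 had a lower fold (2.3). Rad21 at the Nr1d1 starts had 75 and 60 fragments at 229 and 983 bp. The strong peaks lay around the gene. In an intron of Thra, which encodes a thyroid hormone receptor, an intra-TAD anchor had 778 CTCF fragments (724 to 835) and 183 Rad21 fragments. Another, in a coding exon of the Mediator subunit gene Med24, had 517 and 156, and a weak one at 36.2 kb had 79 and 59. Upstream of Nr1d1, at −11.7 kb, an other CAC site had 601 CTCF and 314 Rad21 fragments.

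Nr1d2 (chr14:19036568-19071641, minus strand) had 8 CTCF and 6 Rad21 peaks, the latter all co-bound. A CTCF peak of 168 fragments at 161 bp, 1281 bp wide, overlapped Rad21 peaks of 67 and 56 fragments at 174 and 733 bp. At a start inside the gene a TAD anchor on the plus strand had 113 CTCF fragments at 677 bp and 85 Rad21 fragments at 603 bp. Downstream, at 24.4 kb, a minus-strand TAD anchor had 300 and 131. Around Nr1d2 the density, 5.92 CTCF peaks per 100 kb, was near the median of all genes, unlike that around Nr1d1 (20.5).

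Dbp (chr7:52960458-52965525, plus strand), the output factor and the shortest of the genes (5.07 kb), had 12 CTCF and 11 Rad21 peaks. Its start peaks had 119 and 80 CTCF fragments at −168 and 59 bp and 61 and 62 Rad21 fragments at −317 and 254 bp. Dbp has 4 annotated starts, and all of these peaks lay inside the gene. From the 5′-most start the CTCF peaks lay at 1848 and 595 bp and the Rad21 peaks at 1699 and 254 bp. The CTCF peak of 80 fragments, in a coding exon, was classed as a TAD anchor and was the only clock gene anchor flagged for neither Stag1 nor Stag2, the alternative cohesin subunits. Stronger anchors lay on either side, an intra-TAD anchor in an intron of Sec1 (694 CTCF, 191 Rad21 fragments) and a TAD anchor in an intron of Sult2b1 (244 and 211). Their motifs pointed away from Dbp.

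An anchor lay in the window of 9 of the 10 clock genes, against 65% of all protein-coding genes, and a TAD anchor in 6, against 34.1%. The 25 anchors were 10 TAD anchors and 15 intra-TAD anchors. Together with 60 other CAC and 18 lone CTCF sites they gave shares of 9.71, 14.6, 58.3 and 17.5% of the 103 classed sites, beside 11.2, 17.3, 51.4 and 20.1% of all. The nearest anchors outside the gene span faced each other in 3 genes (Arntl, Per1 and Cry2), against 32.6% of all genes with an anchor on both sides, had the same strand in 4 (39.9% of all) and pointed apart in 3 (27.5%). These counts were near the shares of all genes. Taken around the 5′-most start, an alternative chosen after seeing the data, 4 genes had facing anchors, Per2 being added. The distance between the flanking anchors ranged from 55.7 kb at Per1 to 1505 kb at Nr1d2.

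The motif of the strongest anchor is printed for most of the genes because its strand sets the direction an anchor faces. The 19 bases in capitals are the match of the learnt matrix, whose most frequent bases were GCCACCAGGGGGCGCTAGA, read 5′ to 3′ on the strand of the motif in mm9.
Arntl, chr7:120394381-120394411, minus strand: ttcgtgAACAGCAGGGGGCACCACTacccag
Per1, chr11:68880564-68880594, plus strand: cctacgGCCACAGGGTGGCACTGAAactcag
Per3, chr4:150339456-150339486, minus strand: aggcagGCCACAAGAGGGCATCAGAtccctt
Cry1, chr10:84617121-84617151, plus strand: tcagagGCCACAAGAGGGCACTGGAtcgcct
Cry2, chr2:92278314-92278344, minus strand: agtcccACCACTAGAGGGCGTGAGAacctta
Nr1d1, chr11:98616139-98616169, minus strand: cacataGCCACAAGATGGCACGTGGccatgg
Nr1d2, chr14:19019736-19019766, minus strand: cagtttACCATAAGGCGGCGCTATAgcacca
Dbp, chr7:52938281-52938311, minus strand: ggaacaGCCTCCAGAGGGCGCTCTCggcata
These matches all lay on the strand in the deposited list. The best was that of Cry1, with 22.7 log2 odds, and the weakest that of Nr1d2, with 11.2, against a threshold of 8.83 reached by 5% of flanking sequences. The anchors that lay at a start scored 12 at Nr1d2 and 10.7 at Dbp.
Nr1d2 start, chr14:19043474-19043504, plus strand: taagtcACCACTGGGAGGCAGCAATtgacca
Dbp start, chr7:52961044-52961074, minus strand: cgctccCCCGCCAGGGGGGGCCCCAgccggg
Over all clock gene anchors 22 of 25 had a match (88%, 70 to 95.8%), beside 94.1% of all anchors. The authors had used motifs to choose anchors, so these are descriptions.

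CNC peaks lay in the windows of 8 clock genes, against 50.3% of all protein-coding genes, and were absent from Per3 and Nr1d2. Their median was 35 fragments (16 to 80), beside 61 for the 107 co-bound Rad21 peaks of the clock genes. Over the genome the medians were 29 for CNC and 58 for co-bound peaks, so the weaker signal of CNC peaks was not particular to the clock genes. The strongest, 80 fragments, lay in an intron of Cry2 at 10.3 kb, 64 bp from a CTCF peak of 245. Next came introns of Per2 at 3.1 kb (67 fragments), Per1 at 1.7 kb (61) and Nr1d1 at 2.3 kb (60). By deposited score the strongest was that at 38.9 kb for Per2 (39 fragments) and, for Nr1d1, one in an intron of Med24 (29). Elsewhere it was at −9.9 kb for Arntl (19), −5.4 kb for Cry1 (29) and, in a coding exon of Sphk2, 4.4 kb for Dbp (45). In all, 9 were in introns, 3 in coding exons and 5 between genes, and 6 lay inside the clock gene itself. Within 1 kb of the start of any protein-coding gene lay 4 of 17 (23.5%, 9.56 to 47.3%), beside 14.3% of all CNC peaks. Besides the peak at the Cry1 start, these were intron peaks at −9 bp for Thra, 185 bp for Med24 and −292 bp for Pex16. The gap to the nearest CTCF peak had a median of 1191 bp, was under 1 kb in 8 and over 5 kb in 2. A CTCF motif match was found at 1 of 17 (5.88%, 1.05 to 27%), beside 5.1% of all CNC peaks. Among co-bound Rad21 peaks it was found at 43.9% of those of the clock genes (34.9 to 53.4%), beside 55.6% of all.

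The balance of Rad21 and CTCF fragments had different medians at different kinds of site, for reasons that were not tested. The authors chose intra-TAD anchors partly by peak strength, and local background was not subtracted from the counts. The median of CTCF fragments was 352 over the clock gene anchors and 84.5 over the CTCF peaks at clock gene starts. The ratio of Rad21 to CTCF fragments, which compares pools of 3 and 4 libraries and so serves only between sites, had a median of 0.764 over the 14 co-bound CTCF peaks at clock gene starts, 0.616 at any start, 0.526 over the 25 clock gene anchors and 0.423 over all anchors. Within the clock gene windows it was 0.664 for the 42 peaks within 1 kb of any start and 0.466 for the 60 farther away. The quartiles of these groups overlapped (0.455 to 0.882 and 0.236 to 0.742). Over all co-bound CTCF peaks the medians were 0.616 and 0.546. The strongest CTCF peaks had 980, 778 and 726 fragments, with 126, 183 and 105 for Rad21. The strongest Rad21 peak, at the Per2 intron anchor, had 539. These peaks were picked as extremes of 1 factor or the other, so they cannot show how cohesin varied with CTCF strength.

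**Figure D5:**
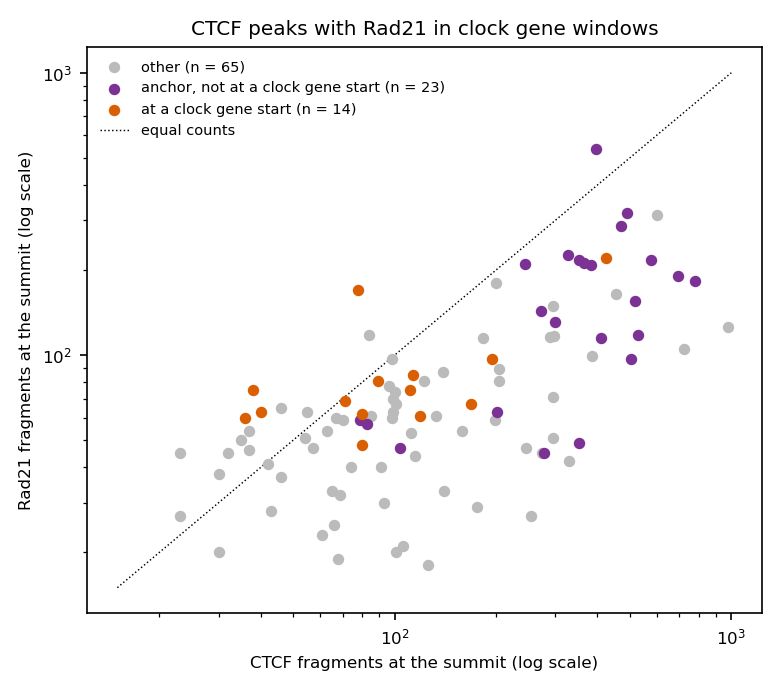
Rad21 against CTCF fragments at the summit, both on log scales, for the 102 co-bound CTCF peaks in clock gene windows. Orange points are at clock gene starts, purple points are anchors elsewhere, grey points are the rest, and the dotted line marks equal counts. Anchors reach 778 CTCF fragments, and the highest point is the Per2 intron anchor with 539 Rad21 fragments.

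Exact matches to the E-box, D-box and RORE letters given here lay at a minority of these peaks. Other forms of these sequences were not searched. In 201 bp around the summit, on either strand, the E-box CACGTG was found at 7 of 135 clock gene CTCF peaks (5.19%, 2.53 to 10.3%), beside 3.69% of all CTCF peaks, and at 3 of 124 Rad21 peaks (2.42%), beside 3.54% of all. None of the 17 CNC peaks held one (upper limit 18.4%). The D-box TTATGTAA was found at 1 CTCF peak (0.741%, beside 0.566%) and 0 Rad21 peaks. The RORE core AGGTCA was found at 11 CTCF peaks (8.15%, beside 12.2%) and 11 Rad21 peaks (8.87%, beside 14.3% of all and 8.93% at any start). No occupancy of clock factors was measured, so a match is a match of letters.

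The E-boxes shown came in pairs, began 1 bp from a CTCF summit or lay at the strongest clock gene anchor. These sites, at Nr1d1 and Cry2, and the D-box in Per2 are printed with the boxes in capitals. They were chosen after their values were seen, and the strand is that of the clock gene.
Nr1d1 intron, chr11:98635158-98635208, minus strand: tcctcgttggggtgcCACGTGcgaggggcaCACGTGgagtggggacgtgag
Nr1d1 upstream, chr11:98644841-98644876, minus strand: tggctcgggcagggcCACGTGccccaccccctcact
Nr1d1 window, Thra intron, chr11:98616131-98616166, minus strand: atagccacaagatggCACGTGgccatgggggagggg
Cry2 intron, chr2:92264009-92264097, minus strand: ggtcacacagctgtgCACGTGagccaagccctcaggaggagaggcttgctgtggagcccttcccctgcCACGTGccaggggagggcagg
Per2 intron, chr1:93339186-93339223, minus strand: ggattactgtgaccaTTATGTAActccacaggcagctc
In an intron of Nr1d1, at 1390 bp, 2 E-boxes started 15 bp apart under a CTCF peak of 55 fragments and a Rad21 peak of 63. At −8.2 kb an E-box began 1 bp from the summit of a CTCF peak of 204 fragments. The Cry2 boxes, 53 bp apart, lay under a CTCF peak of 57 fragments. The D-box lay 16.7 kb into Per2, under an other CAC site.

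The authors' list also flags overlap with public peaks of Stag1, Stag2 and Top2b, a topoisomerase. Of the 103 classed clock gene sites 59.2% (49.6 to 68.2%) had the Stag1 flag, beside 70.6% of all sites, while Stag2 (86.4%, beside 88.1%) and Top2b (54.4%, beside 54.8%) were near the share of all in the pooled total. All 15 intra-TAD anchors had both Stag flags, beside 94.8% with Stag1 and 97.5% with Stag2 over all intra-TAD anchors. Among other CAC sites the Stag1 flag was on 14 of 29 at any start (48.3%, 31.4 to 65.6%, beside 61.8%) and on 21 of 31 away from starts (67.7%, 50.1 to 81.4%, beside 81.9%). The Top2b flag was on 16 of those 29 at any start (55.2%, 37.5 to 71.6%, beside 72.3%) and on 15 of the 31 away from starts (48.4%, 32 to 65.2%, beside 51.1%). Of the 18 lone CTCF sites 33.3% (16.3 to 56.3%) had it, beside 18% of all lone sites.

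A further 16 genes were listed by name for their known roles in the clock, with earlier results of these data known. Of these, 13 had CTCF and 13 had Rad21 at a start, against 55.1% and 52.3% of all protein-coding genes, the exceptions for both being Rorb, Bhlhe41 and Ciart. Those with a CNC peak at a start included Nfil3, Hlf, Bhlhe40, Csnk1d and Csnk1e, with 74, 56, 106, 45 and 43 fragments. Nfil3 encodes a repressor that competes with DBP for D-boxes, and Hlf a relative of DBP. At Bhlhe40, a repressor of E-box genes, 9 of 12 Rad21 peaks in the window were CNC, though its start also held 747 CTCF fragments. An anchor lay in the window of 14 of the 16, against 65% of all genes.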

How the data were processed

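CTCF (4 libraries) and Rad21 (3 libraries) were measured by ChIP-seq in livers of male mice. The authors combined the reads of a factor before mapping (Bowtie2, mm9), kept reads with 1 place in the genome, called peaks with MACS2 and removed blacklisted peaks and those of PCR duplicates alone. The deposited score is 10 times −log10 of the q-value, cut to a whole number. The deposited −log10 p-value belongs to the summit, and the deposited fold is the ratio of pileup to local background with 1 added to both. The authors' class list gives a class, a motif score and flags, without a header, so the study's account of this list gave the order of its columns. Summit fragments were recovered from fold and −log10 p (whole within 0.05 at 99.996% of CTCF and 99.997% of Rad21 peaks). Library depth is not given in the lists. Starts and exons came from GENCODE for NCBIM37.

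The CTCF matrix (19 bp) was learnt from 1500 TAD anchors on odd autosomes and checked on even autosomes, where 98.6% of 15686 matches had the deposited strand. Shares have 95% Wilson intervals and fragments 95% exact Poisson intervals, which cover counting error only. Overlap and motif code was tested on simulated data. Values were computed with scipy 1.17.1 and numpy 2.4.6, tables with pandas 2.3.3 and figures with matplotlib 3.10.9, under Python 3.11.15. The genes and lists were chosen with earlier results of these data known. All 10 genes are named, with the strongest peaks of each window by deposited score, every anchor and, for most of these peaks, the nearest gene. Some items are not reported here. Alternatives varied the window, the co-binding rule, the score and the start zone.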

Additional observations from a re-analysis of the deposited data

How the results depend on the processing

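Of 43 values under alternatives 25 stayed near the reported value and 18 moved. Without the 50 kb extension the windows held 46 Rad21 and 40 CTCF peaks and 9 anchors, and 92.5% of the CTCF peaks had Rad21. No share over the spans of all protein-coding genes is given beside it. With 25 kb there were 16 anchors, and with 100 kb 206 CTCF peaks and 42 anchors. A score of at least 100 left 82 Rad21 peaks, of which 8.54% were CNC, and 2 genes with a CNC peak at a start. With summits at most 100 bp apart as the rule for co-binding, the CNC share was 36.3%, the share of CTCF peaks with Rad21 58.5% and the genes with a CNC peak at a start 4; with a reciprocal overlap of 50% they were 33.9%, 60.7% and 5. A start zone of 500 bp gave 0 such genes and one of 2.5 kb gave 3. The number of genes with CTCF or Rad21 at a start stayed between 8 and 10. The cause of these changes was not tested. No paired analysis was possible because each list pools all libraries of its factor, and for the same reason no library could be left out. Depth per library and peaks too weak to be called limit what can be read from an absent peak.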

Other observations

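In the Nr1d1 window, the E-box of the Thra intron anchor lay inside the 19 bases of its CTCF motif match, GCCACAAGATGGCACGTGG, so that the same letters can be read as both. This was noticed after the values were seen. Such an overlap was found at 1 of 22 clock gene anchors with a match (4.55%, 95% Wilson interval 0.807 to 21.8%) and at 19 of 14039 anchors with a match over the genome (0.135%).

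The clock gene windows also took in starts of other genes: 33 CTCF peaks and 34 Rad21 peaks lay at the starts of 24 neighbouring genes each. After Fam132b, the strongest CTCF peaks there were those of Med24 (517 fragments) and Thra (453), both beside Nr1d1. In the last 5 kb inside the windows lay 7 CTCF and 6 Rad21 peaks, with medians of 115 and 49 fragments, and in the first 5 kb outside 7 and 6, with medians of 288 and 71.5.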
